A study of Mus musculus with 4 samples.

Results

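The protein part of the cytosolic ribosome was followed in liver of *Rap1*-deficient mice, in which the gene for the telomere-binding protein RAP1 is deleted throughout the body. Genes were taken by symbol: those starting with Rpl or Rps and a digit, with the stalk proteins Rplp0, Rplp1 and Rplp2 and the laminin receptor protein Rpsa. The S6 kinases, the pseudogenes and the paralogs ending in l were left out. The rule gave 81 mouse genes, of which 78 had a probe on the array. *Rps23*, *Rpl37rt* and *Rps27rt* had none that could be named. Of the 78, 76 encode ribosomal proteins, 43 of the large subunit, 30 of the small subunit and 3 of the P stalk, and all 76 were measured above background. They were read by 161 of the 55681 probes, and 158 of these were among the 27513 probes tested. The remaining 3 were too dim to be tested, and each of their genes had another probe.

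Each array set *Rap1* -/- liver against wild-type liver, both on the C57BL6/129SV (90%:10%) background and 30 weeks old by the labels, which give no sex. The paper describes females at the onset of obesity and gives another age, and genotype and body weight cannot be told apart. The deletion came from *Rap1* flox/flox mice crossed with mice carrying Cre under the *EIIa* promoter, which acts in the early embryo, so that it is present in every cell type of the liver and is not specific to hepatocytes. Both genotypes shared each of 4 Agilent 2-colour arrays, all on 1 slide, with the *Rap1*-deficient liver in Cy5 on replicates 1, 2 and 3 and in Cy3 on a dye swap, which the labels number 1. All values below are log2 ratios of *Rap1*-deficient over wild-type, with the sign of the swap turned. Tests are limma's over n = 3 pairs of livers, replicate 1 being the mean of its array and the swap, and a gene passed at a Benjamini-Hochberg false discovery rate (FDR) under 0.15. No source used here says whether the livers of one genotype came from separate mice, and the p-values measure the spread between these pairs.

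Ribosomal proteins coat and stabilize the ribosomal RNAs of the small subunit, which decodes the messenger RNA, and of the large subunit, which joins amino acids. Their messenger RNAs are among the most abundant of any cell and most of them start with a C followed by a run of pyrimidines, the TOP motif, through which TOR signaling and the LARP1 protein control their translation. In budding yeast, the protein named Rap1 binds upstream of ribosomal protein genes and activates them. The mammalian protein binds telomeres through TRF2, on arrays of TTAGGG, and is also found at sites away from telomeres.

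The sequences of the start sites show the motif in part of these genes. RefSeq windows of 300 bases around the start (GRCm38.p6, 250 bases before it and 50 after) were at hand for 56 of the 76 genes. The search was for a C followed by at least 4 letters that are C or T, lying within 5 bases of the annotated start. It was met by 26 of the 56 genes (46.4%), against 21.5% of all 17492 protein-coding genes with a window. Only genes that met the search are printed below. The sequences below belong first to the stalk protein *Rplp2* and the S6 kinase substrate *Rps6*. *Rps26* and *Rps24* follow, which rose over the 3 pairs on their brightest probes. *Rps18*, *Rps27*, *Rps15a* and *Rpl12*, which fell on theirs, come last. Another probe of *Rps18* passed as higher. Each sequence is printed 5′ to 3′ on the strand of the gene over 30 bases, starting 12 bases before the annotated start, with the run in capitals.
Rplp2, chr7:141447639-141447668, plus strand: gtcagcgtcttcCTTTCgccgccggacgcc
Rps6, chr4:86857350-86857379, minus strand: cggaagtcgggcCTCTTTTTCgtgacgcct
Rps26, chr10:128626489-128626518, minus strand: gggcaagccgccggatCCTCTTTCgagtct
Rps24, chr14:24490666-24490695, plus strand: gcgctggggtcCTTCCTTgcgcgttgatat
Rps18, chr17:33955648-33955677, minus strand: gtcacttccgctCTCTCTTCCacaggaggc
Rps27, chr3:90213631-90213660, minus strand: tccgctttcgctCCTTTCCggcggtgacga
Rps15a, chr7:118116130-118116159, minus strand: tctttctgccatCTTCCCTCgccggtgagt
Rpl12, chr2:32961700-32961729, plus strand: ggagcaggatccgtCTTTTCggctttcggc
Genes that rose and genes that fell both carried the run. With direction taken from the brightest probe, the run was found in 2 of the 6 higher genes and in 6 of the 9 lower genes with a window. A match is a description of letters and not of a start site in use, which the arrays do not show.

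The telomeric repeat unit TTAGGG, searched as 1 copy on both strands, was in the windows of 8 of the 56 genes (14.3%), against 12.01% of all protein-coding genes. No member held it more than once. These 8 were *Rpl6*, *Rpl13*, *Rpl22*, *Rpl26*, *Rpl39*, *Rpl41*, *Rps4x* and *Rps18*. Stretches of 30 bases around the unit, in capitals, follow for the 3 that are described further below.
Rps18, chr17:33955752-33955781, minus strand: acaactcctcccTTAGGGggagacggggag
Rps4x, chrX:102189342-102189371, minus strand: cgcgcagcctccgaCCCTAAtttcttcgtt
Rpl26, chr11:68901344-68901373, plus strand: ccggcctaccgtCCCTAAgcaaccctcttc
In *Rps18* the unit begins 104 bases before the annotated start, in *Rpl26* 210 bases before it and in *Rps4x* 34 bases after it. A single unit is no telomeric array, and the share of members that hold it lay near that of all genes.

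The gene for RAP1 is *Terf2ip*. In wild-type liver its probe A_52_P381806 exceeded background on all 4 arrays, and in *Rap1*-deficient liver on 0. The ratios were -1.74, -1.92 and -1.91 on the Cy5 arrays (replicates 1, 2 and 3) and -1.68 on the swap. The probe was at least 3.33-fold lower (adjusted p = 0.00859 from limma), taking for *Rap1*-deficient liver the lowest signal well above background. Another probe, A_55_P2094079, read 0.96 (standard error 0.09), and the sources used here do not place it relative to the deleted part. The labels of dye and genotype were therefore borne out on all 4 arrays, the swap included. Across all tested probes, r was 0.64 to 0.85 among the Cy5 arrays and -0.29 to -0.24 between these and the swap.

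Ribosomal protein messenger RNAs differed little between the genotypes. With 1 probe per gene, the brightest, 8 of the 76 genes rose, 11 fell and 57 did not pass. The background was 20.8% of all tested probes higher and 13.7% lower, and over all named genes 18.0% and 16.1%, whereas 10.5% of the members were higher and 14.5% lower. The share of members that passed was therefore below the background on the higher side and, with 1 probe per gene, near it on the lower side. Their median log2 fold change was -0.02, beside 0.03 over all tested probes. Fold changes ran from -0.40 to 0.51, that is from 1.32-fold lower to 1.42-fold higher. For 61 of the 76 genes (80.3%) the log2 fold change was under 0.3 in size, beside 70.8% of all tested probes, and none of the members passed 1, which 2.44% of all probes did. The smallest adjusted p of a member was 0.0569.

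On its brightest probe, each of the 8 genes that rose over the 3 pairs was negative on the swap, at -0.36 to -0.18. Of the 11 that fell, 5 were negative on the swap and 6 positive, between -0.14 and 0.25. In all, 5 of the 19 genes that passed (26.3%) had the same sign on the swap, beside 39.5% of all named genes that passed. Over all probes of the members, 17 of the 43 that passed (39.5%) had the same sign there, beside 36.2% of all probes that passed. Among the 17 was 1 higher probe, another one of *Rps24*. It read 0.23, 0.33 and 0.46 on replicates 1, 2 and 3 and 0.13 on the swap (0.32, adjusted p = 0.0805 from limma). With a dye term fitted over the 4 arrays by limma, 0 of the 76 genes were higher and 0 lower, where the background was 4.61% and 2.09% of all tested probes. At an unadjusted p under 0.05, 3 genes (3.95%) were past the threshold, beside 17.9% of all probes, and the smallest adjusted p was 0.266. The swap counted as a replicate of its own also gave 0 higher and 0 lower by limma, with 6 genes (7.89%) at an unadjusted p under 0.05, beside 20.3% of all probes. Since 0.0981% of all probes were higher and 0.204% lower in that fit, the counts of 0 say little about the members. Without the swap, 20 genes were higher (26.3%) and 19 lower (25%), and so were 29.5% and 23.2% of all probes.

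The counts also moved with single pairs of livers, as those over the whole array did. Without replicate 1 and its swap, 18 members were higher and 12 lower, beside 26.4% and 19.4% of all probes. Without replicate 2, 0 were higher and 0 lower by limma, with 0 at an unadjusted p under 0.05, but 0.00363% and 0.0218% of all probes were called there too. Without replicate 3 the counts were 0 and 2, beside 6.92% and 3.02% of all probes. With each array centred on its median in place of loess, 7 were higher and 0 lower, at a median of 0.16 for the members and 0.17 for all probes, so that 100% of the calls were higher in place of 42.1%. Of all probes, 20.6% were higher and 2.89% lower with that centring. The share of the members' calls that were higher was 33.3% with Agilent's processed signals (3 higher, 6 lower, beside 17.6% and 18% of all probes) and 21.4% with the authors' value table (6 higher, 22 lower, beside 16.5% and 19.9%).

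**Figure D1:**
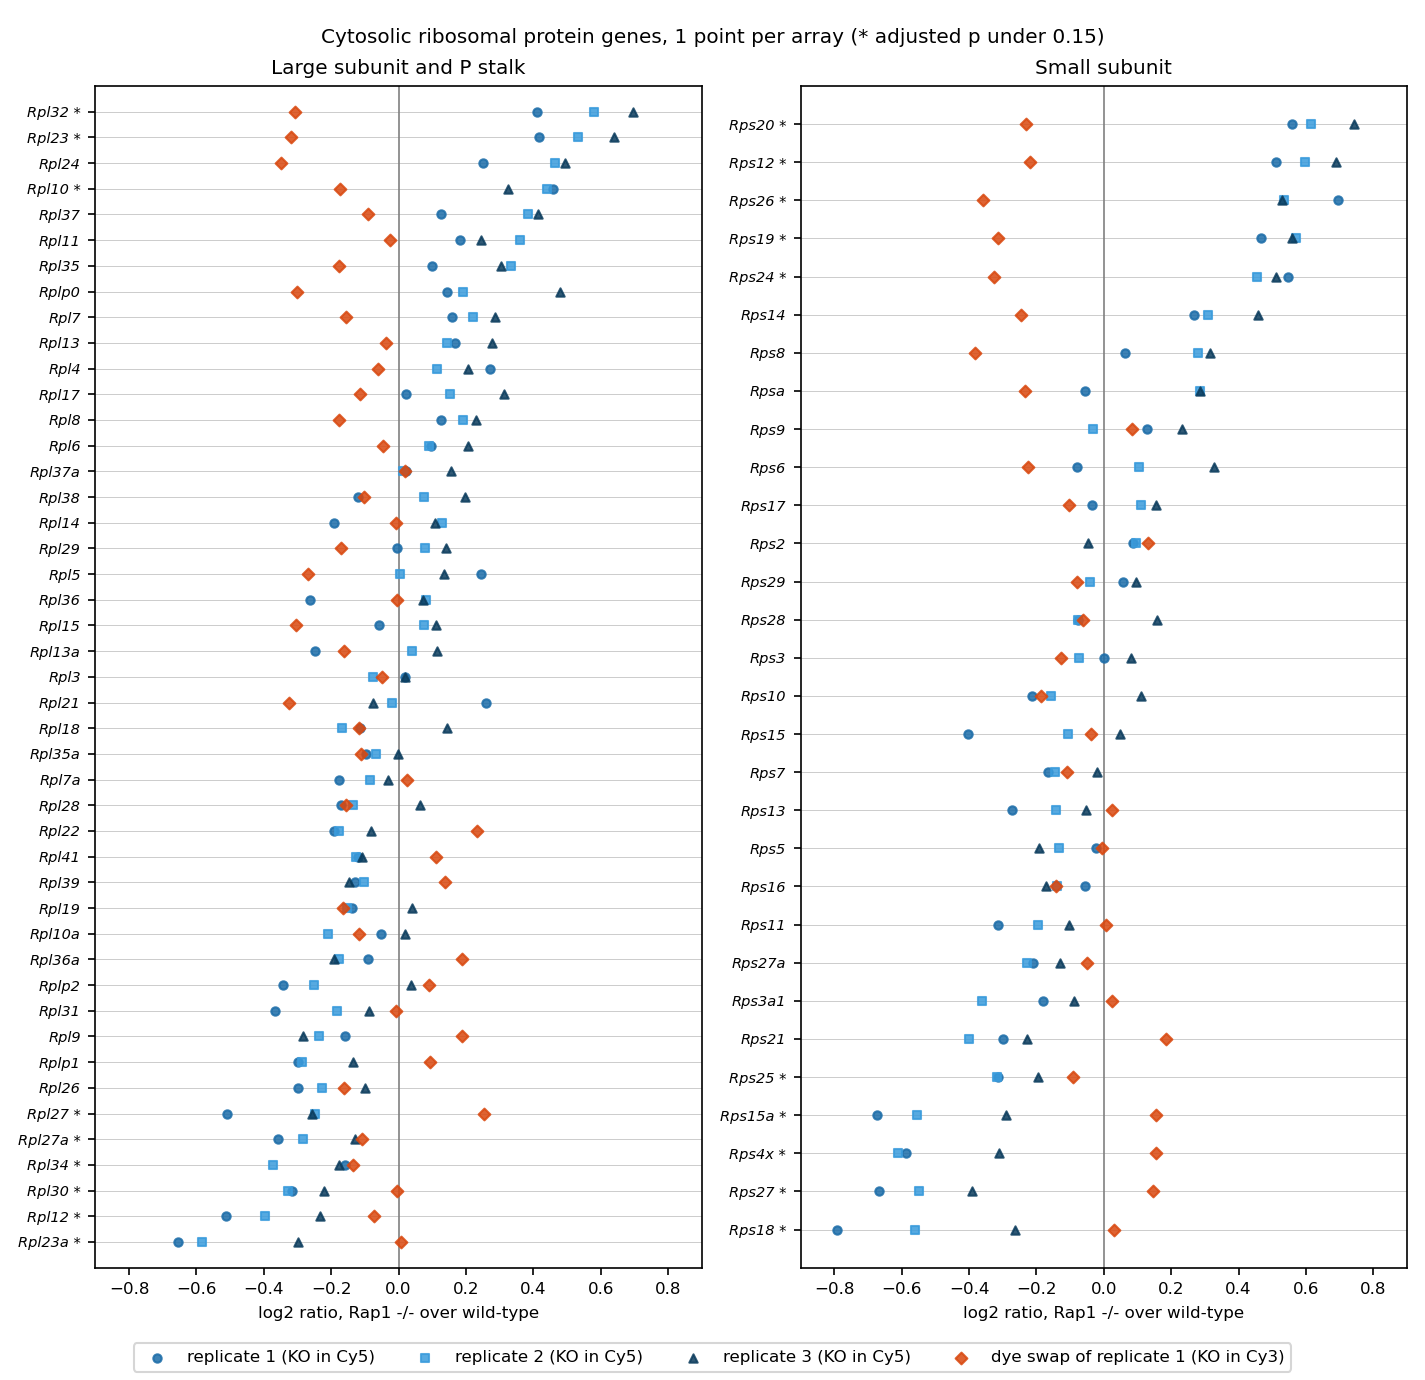
Log2 ratio of the cytosolic ribosomal protein genes on each of the 4 arrays, with 1 of the 76 not drawn, 1 row per gene and 1 point per array, ordered by the log2 fold change over 3 pairs, with the large subunit and P stalk on the left and the small subunit on the right. KO is *Rap1* -/- and an asterisk marks the 19 genes that passed. The genes at the top are positive on replicates 1 to 3 and negative on the swap, as *Rps20* at 0.56, 0.61, 0.74 and -0.23.

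Gene by gene, the 3 Cy5 arrays resembled each other and the swap ran the other way. Across the 76 members, which share arrays and are not independent, r was 0.85 to 0.93 between replicates 1, 2 and 3 and -0.73 to -0.65 between the swap and each of them. Over all probes the swap correlated at -0.24 to -0.29. The mean of the 3 arrays set against the swap gave r = -0.70. On replicates 1, 2 and 3, 53 of the 76 genes kept 1 sign, 24 positive and 29 negative. The difference between the dye orientations was larger than that between the genotypes in 52 genes (68.4%), beside 62.0% of all probes. The swap carries the same pair of livers as replicate 1 by its number, so dye orientation and liver differ between it and replicates 2 and 3, and only orientation between it and replicate 1. What set the ratios of the members apart between the orientations was not tested.

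The members as a group did not shift the same way on each array. Their medians were -0.08, -0.07 and 0.08 on replicates 1, 2 and 3 and -0.10 on the swap. Positive ratios were read for 30, 34 and 45 genes on replicates 1, 2 and 3 and for 21 on the swap. The spread of the members was 0.31, 0.30 and 0.27 (SD over genes) on the 3 arrays and 0.16 on the swap, against 0.48 to 0.51 and 0.24 over all tested probes.

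**Figure D2:**
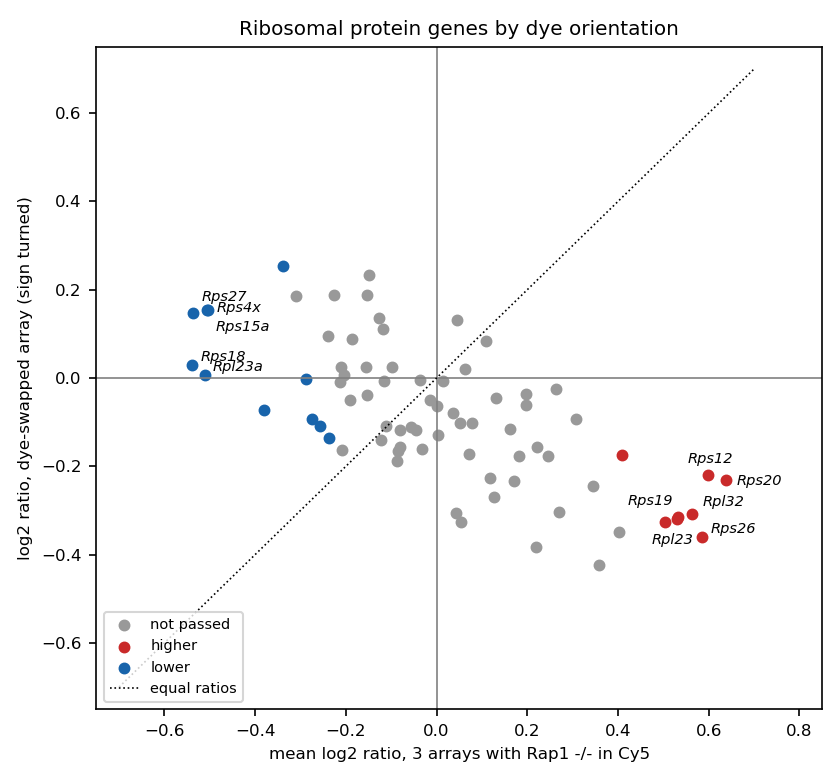
Mean log2 ratio on replicates 1, 2 and 3 (*Rap1*-deficient liver in Cy5) against the log2 ratio on the dye-swapped array, sign turned, for the 76 genes, coloured by whether they passed over 3 pairs. Equal ratios would lie on the dotted line, whereas the points run from upper left to lower right (r = -0.70), and the 8 red points all lie below 0 on the vertical axis.

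The largest increases were in 4 proteins of the small subunit and 2 of the large subunit. *Rps20*, a protein of the head of the small subunit, read 0.56, 0.61 and 0.74 on replicates 1, 2 and 3 and -0.23 on the swap. Its log2 fold change was 0.51 (standard error 0.13, adjusted p = 0.0673 from limma). With the dye term it was 0.20 (adjusted p = 0.271). The 3 arrays were thus alike and the swap was on the other side of 0.

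*Rps12*, also a protein of the head, had ratios of 0.51, 0.60, 0.69 and -0.22 in the same order, and a fold change of 0.48. *Rps26*, which lies at the exit of the messenger RNA channel and is mutated in some families with Diamond-Blackfan anemia, had 0.69, 0.54, 0.53 and -0.36, and a fold change of 0.41. *Rps19*, the gene most often mutated in that anemia, had 0.47, 0.57, 0.56 and -0.32, and a fold change of 0.40. In these genes the swap lay below 0 by less than the other arrays lay above it.

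*Rpl32*, a protein of the large subunit, read 0.41, 0.58, 0.70 and -0.31, and its fold change was 0.44. *Rpl23*, a large subunit protein that can bind MDM2, read 0.42, 0.53, 0.64 and -0.32 on its brightest probe, and 0.41 overall. *Rps24* (0.36) and *Rpl10* (0.30), the latter needed for the last steps of large subunit maturation, were the other genes that rose. Adjusted p over these 8 genes ran from 0.0673 to 0.105 (limma), and with the dye term from 0.271 to 0.582 at log2 fold changes of 0.09 to 0.20.

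The largest decreases were in 4 proteins of the small subunit and 2 of the large subunit. *Rps18* is a protein of the head that contacts the large subunit. On its brightest probe it read -0.79, -0.56 and -0.26 on replicates 1, 2 and 3 and 0.03 on the swap. The fold change of that probe was -0.40 (standard error 0.10, adjusted p = 0.0577 from limma). *Rps27*, a zinc finger protein of the small subunit, read -0.67, -0.55, -0.39 and 0.15 (fold change -0.40). *Rpl23a*, at the exit of the peptide tunnel, read -0.65, -0.58, -0.30 and 0.01 (fold change -0.40). The first array was lowest in all 3 genes and the swap was near or above 0.

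*Rps4x*, the X-linked gene for protein S4, read -0.59, -0.61, -0.31 and 0.15, and its fold change was -0.38. *Rps15a*, a protein of the small subunit body, read -0.67, -0.55, -0.29 and 0.15, and its fold change was -0.37. *Rpl12*, which with the stalk forms the site where elongation factors bind, was the exception among these 6, negative on all 4 arrays at -0.51, -0.40, -0.23 and -0.07, with a fold change of -0.31 (standard error 0.09, adjusted p = 0.0742 from limma). With the dye term *Rpl12* had a log2 fold change of -0.23 and the smallest adjusted p of the members, 0.266. The remaining 5 genes that fell were *Rps25*, *Rpl30*, *Rpl34*, *Rpl27a* and *Rpl27*, at -0.24 to -0.21, and of these *Rpl27* was at 0.25 on the swap.

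Just inside the threshold lay *Rpl27* (adjusted p = 0.146) and just outside it *Rpl37* (0.154) and *Rpl11* (0.155), all from limma.

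On the brightest probe, 12 of the 76 genes (15.8%) were negative on all 4 arrays, beside 10.9% of all tested probes. Positive ratios on all 4 were seen in 1, *Rpl37a* (1.32%), beside 10.6%. Over the 158 tested probes of the members, 32 (20.3%) were negative and 6 (3.80%) positive on all 4. Probes of *Rpl11* and *Rps24* other than the brightest were among the 6. *Rpl34* read -0.16, -0.37 and -0.18 on replicates 1, 2 and 3 and -0.14 on the swap. *Rpl27a* read -0.36, -0.28, -0.13 and -0.11, and *Rps25* read -0.31, -0.32, -0.20 and -0.09. On the brightest probe these are the negative genes farthest from 0 on their weakest array, apart from *Rpl26*, whose probes passed in opposite directions. Their other probes did not all go the same way. One of *Rpl27a* read -0.06, 0.03, 0.15 and -0.23 (0.01), and one of *Rpl34* was at 0.01 on the swap (-0.19, adjusted p = 0.198 from limma). A further probe of *Rpl27a* and the other probe of *Rps25* were negative on all 4 arrays. *Rpl37a*, a zinc finger protein of the large subunit, had 0.02, 0.01, 0.15 and 0.02. No member had the same sign on the 4 arrays and passed both over the 3 pairs and with the dye term.

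By subunit, 3 of 43 genes of the large subunit rose, 6 fell and 34 did not pass, at a median of -0.02. Of 30 genes of the small subunit, 5 rose and 5 fell (16.7% each) and 20 did not pass, at a median of -0.05. Over all named genes, 18.0% rose and 16.1% fell, near the shares of the small subunit. The 3 P stalk proteins, which recruit the GTPases of translation, did not pass. *Rplp0*, long in use as a reference gene, read 0.14, 0.19, 0.48 and -0.30 on its brightest probe (0.20, adjusted p = 0.318 from limma). Other probes of *Rplp0* were at -0.00242 and -0.08. *Rplp1* read -0.30, -0.29, -0.13 and 0.09 (-0.17, adjusted p = 0.22), and *Rplp2* -0.34, -0.25, 0.04 and 0.09 (-0.11, adjusted p = 0.431). *Rpsa*, a small subunit protein also known as the laminin receptor, read -0.06, 0.29, 0.28 and -0.23 on its brightest probe (0.14, adjusted p = 0.432). Other probes of *Rpsa* were at 0.14, -0.11 and -0.08.

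Proteins with well-studied roles of their own showed the same range. *Rpl3*, at the peptidyl transferase center, read 0.02, -0.08, 0.02 and -0.05, and *Rps3*, at the entry of the messenger RNA channel, 0.00157, -0.07, 0.08 and -0.13. *Rps6*, the substrate of S6 kinase, read -0.08, 0.10, 0.33 and -0.23. None of these 3 genes passed (adjusted p = 0.851, 0.895 and 0.601 from limma), and their ratios lay on both sides of 0.

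*Rpl5* and *Rpl11* form with 5S RNA the particle that binds MDM2 and stabilizes p53. *Rpl5* read 0.24, 0.00414, 0.13 and -0.27 (0.04, adjusted p = 0.75 from limma). *Rpl11* read 0.18, 0.36, 0.24 and -0.02 (0.23, adjusted p = 0.155). *Rps14*, haploinsufficient in the 5q- syndrome, read 0.27, 0.31, 0.46 and -0.24 (0.26, adjusted p = 0.171). Over the 12 members tied to MDM2 and p53 or to Diamond-Blackfan anemia, 4 rose (33.3%), 0 fell and 8 did not pass. Over all named genes, 18.0% rose and 16.1% fell. The 4 were *Rps19*, *Rps24*, *Rps26* and, on its brightest probe, *Rpl23*. On the brightest probes, 0 of the 12 members were above 0 on the swap, and with the dye term 0 of the 12 passed. Other probes differed on the swap. Those of *Rpl11* were at 0.07 and 0.03, those of *Rps24* at 0.13 and -0.08, and those of *Rpl23* at 0.09 and -0.22. The medians of the 12 members, on the brightest probes, were 0.21, 0.21 and 0.20 on replicates 1, 2 and 3 and -0.22 on the swap.

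Probes of 1 gene did not always agree. Of 51 members with several tested probes, 20 (39.2%) had probes of opposite sign, beside 40.9% of all such genes, and in 3 (5.88%, beside 5.52%) the probes passed in opposite directions. The range between probes had a median of 0.16, beside 0.25 for all genes. Over the 158 tested probes 12 were higher (7.59%, beside 20.8% of all tested probes), 31 lower (19.6%, beside 13.7%) and 115 did not pass. The share of lower calls was thus above the background when all probes of the members were counted, and near it with 1 probe per gene. Counted by any probe, 11 of the 76 genes had a probe that was higher and 24 one that was lower. Over the 13167 named genes these counts were 3116 and 2330. Only 1 tested probe was present for 25 of the 76 members and for 10144 of the named genes, so the any-probe counts are not like for like.

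*Rpl26*, a large subunit protein that binds the p53 messenger RNA, had the widest range, 0.90. One probe read 1.11, 0.90, 0.61 and -0.43 (0.62, standard error 0.13), another -0.45, -0.39, -0.22 and -0.05 (-0.29, standard error 0.09) and the brightest -0.30, -0.23, -0.10 and -0.16 (-0.19). *Rps18* had a probe at 0.74, 0.61, 0.71 and -0.54 (0.47, standard error 0.14), opposite to the brightest probe, at -0.40. The 3 probes of *Rpl23* were at 0.41, -0.26 and 0.14. The higher probes of *Rpl26*, *Rps18* and *Rpl23* were all negative on the swap, at -0.43, -0.54 and -0.32. The direction given for *Rpl26*, *Rps18* or *Rpl23* holds for the probe named and not for the gene. Ribosomal protein genes have many processed pseudogenes, and what each probe binds was not tested, since the probe sequences are not used here.

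**Figure D3:**
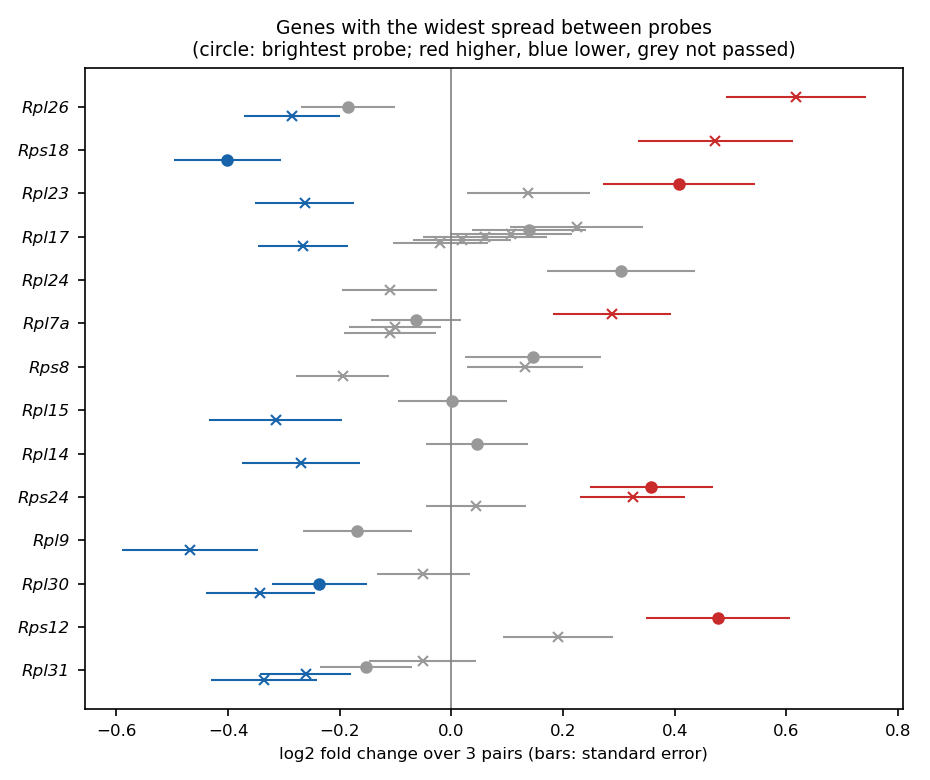
Log2 fold change over 3 pairs for each tested probe of the 14 members with the widest range between probes, with limma's standard error as bars. *Rpl26*, *Rps18* and *Rpl23* have probes that passed on both sides of 0, *Rpl26* from -0.29 to 0.62.

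Other genes of the translation machinery went both ways, as the members did. The background for each list below was 18.0% higher and 16.1% lower over all named genes. Of 16 TOP messenger RNAs that encode no ribosomal protein, 5 rose (31.25%), 3 fell (18.75%) and 8 did not pass, at a median of -0.04. *Pabpc1*, the poly(A)-binding protein, read 0.73, 0.73, 1.08 and -0.13 (0.70, standard error 0.16, adjusted p = 0.0524 from limma). *Eef2*, the translocase of elongation, read 0.60, 0.56, 0.69 and -0.24 (0.48, adjusted p = 0.0659), and *Eef1a1*, which delivers aminoacyl-tRNA, -0.38, -0.20, -0.10 and -0.15 (-0.19, adjusted p = 0.188). Of 11 elongation and termination factors, 4 rose (36.4%) and 3 fell (27.3%). Among those that fell was *Eef1e1*, a subunit of the synthetase complex, at -0.56 with 0.07 on the swap.

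Of 40 initiation factors, 8 rose (20%) and 10 fell (25%). *Eif2s3x*, the gamma subunit of eIF2, was positive on all 4 arrays at 0.96, 0.91, 0.63 and 0.11 (0.69, standard error 0.10, adjusted p = 0.0402 from limma, 0.0992 with the dye term). *Eif3a*, the largest subunit of eIF3, was negative on all 4 at -0.73, -0.78, -0.64 and -0.02 (-0.60, standard error 0.11, adjusted p = 0.0411 from limma, 0.105 with the dye term). Both passed with the dye term, as no ribosomal protein gene did.

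Upstream in ribosome production, 2 of 13 genes of RNA polymerase I and its factors rose (15.4%) and 3 fell (23.1%). *Taf1c*, a subunit of the promoter selectivity factor, was positive on all 4 arrays (0.34, swap 0.16). *Ubtf*, which binds the ribosomal RNA genes, read 1.10, 1.18, 1.36 and -1.03 (0.86, adjusted p = 0.0902 from limma, 0.627 with the dye term), a reversal of nearly its full size on the swap. Of 61 ribosome assembly factors, 10 rose (16.4%) and 13 fell (21.3%). *Utp14a*, a factor of small subunit processing, was positive on all 4 arrays at 0.30, 0.54, 0.61 and 0.44 (0.51, adjusted p = 0.0411 from limma, 0.0972 with the dye term), and *Emg1*, a methyltransferase of the small subunit RNA, read -0.50, -0.79, -0.88 and 0.03 (-0.64).

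Of 28 genes of TOR and S6 kinase signaling, 5 rose and 5 fell (17.9% each). *Mtor*, the kinase, and *Rps6kb1*, which encodes S6 kinase, did not pass at 0.09 and -0.11 (adjusted p = 0.541 and 0.374 from limma). *Pdcd4*, an inhibitor of initiation that S6 kinase marks for breakdown, read -0.90, -0.48, -0.59 and -0.10 (-0.53, standard error 0.08, adjusted p = 0.0402). *Tsc1*, an inhibitor of TOR complex 1, read -0.80, -0.58, -0.63 and 0.02 (-0.53, adjusted p = 0.0403).

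The 77 mitochondrial ribosomal proteins serve the separate ribosome of that organelle. Of these 77, 5 rose (6.49%), 10 fell (13.0%) and 62 did not pass, at a median of -0.10. Their 2 members with the smallest p, *Mrpl37* (0.52, swap -0.19) and *Mrpl9* (0.39, swap -0.02), were among the 5 that rose. Of 21 aminoacyl-tRNA synthetases, 3 rose (14.3%), among them *Dars* (0.80, swap 0.16), and 4 fell (19.0%), among them *Lars* (-0.53, swap 0.42).

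Genes close to the members but outside the rule were read too. *Fau*, which encodes ribosomal protein S30 fused to a ubiquitin-like protein, and the small subunit scaffold *Rack1* did not pass (-0.05 and 0.19, adjusted p = 0.671 and 0.331 from limma). Of 4 measured paralogs with the ending l, *Rps27l*, a p53 target, fell by 0.30 (swap 0.18) and *Rpl22l1*, the paralog of *Rpl22*, by 0.26 with the same sign on the swap (-0.23). The symbol rule also gave *Rps19bp1*, a binding partner of the S19 protein, which fell by 0.30 (swap 0.25, adjusted p = 0.108), and the retrogene *Rps23rg1*, which did not pass (0.09, adjusted p = 0.465).

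**Figure D4:**
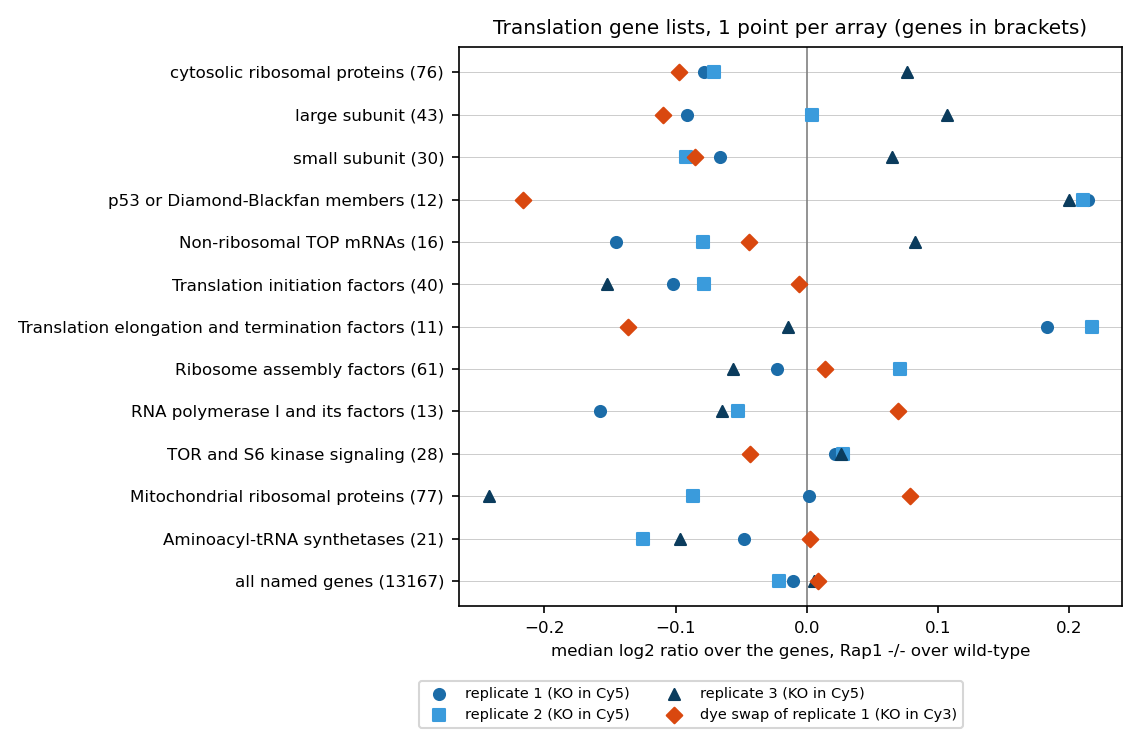
Median log2 ratio over the tested genes of each translation list on each of the 4 arrays, with the count of genes beside each name. Most lists lie within about 0.2 of 0, and the ribosomal proteins tied to p53 or Diamond-Blackfan anemia sit near 0.20 on replicates 1, 2 and 3 and at -0.22 on the swap.

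Among the marker lists, macrophage, neutrophil and erythroid markers varied most between pairs. The SD of their 3 pair medians was 0.87, 1.04 and 0.55, beside 0.09 for the members. It was 0.10 to 0.19 for endothelial, hepatocyte, cholangiocyte and lymphocyte markers, and 0.05 for stellate cell and fibroblast markers. The median of the 11 macrophage and Kupffer cell markers measured was -0.44 on replicate 1, 0.23 on replicate 2, 1.34 on replicate 3 and -0.27 on the swap. The 5 neutrophil markers had 1.44 on replicate 3 and -0.45 to -0.18 on the other arrays. The 5 erythroid markers had 1.03 on replicate 1 and 0.61 on its swap, against -0.26 and 0.09. Replicate 3 was also the array on which the median of the ribosomal proteins was above 0. Markers of hepatocytes, the cells that make up most of the tissue, were well above background for 11 of 11 measured genes, of which 1 rose and 1 fell. Endothelial markers (10 measured, 4 higher, 1 lower), stellate cell and fibroblast markers (10, 1 and 0), lymphocyte markers (9, 2 and 0) and cholangiocyte markers (4, 1 and 0) complete the lists. In bulk RNA, fewer cells of a type and less RNA per cell cannot be told apart, and the part of these markers in the results above was not tested.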

How the data were processed

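Liver RNA of *Rap1* -/- and wild-type mice was hybridised in pairs on 4 Agilent 2-colour arrays. The deposited scans are spot intensities read by Agilent Feature Extraction, version 10.7.3.1 per the file headers and another version in the paper. They hold median spot and local background intensities and the authors' processed intensities, with a deposited log10 ratio of Cy5 over Cy3. Log2 ratios of each probe form the authors' value table, which the submitters' processing notes credit to limma and in which the dye swap was already turned. How they were background-corrected and normalized was not found in the labels or the paper.

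From the median intensities, background was removed by normexp with an offset of 50, and loess was run within each array (limma 3.58.1, R 4.3.3), with control spots at weight 0 and outlier-flagged spots left out. The sign of the dye swap was turned, and the swap was averaged with replicate 1, which rests on its number in the labels. Tested probes had 0.5 or more of their spots flagged well above background by the authors' software on all arrays, for 1 genotype or both. Between 50.1% and 56.4% of spots per channel were well above background, 0 were saturated, and precision is limited by the number of arrays. Probes were named by accession through RefSeq (GRCm38.p6). The fit was lmFit and eBayes on an intercept, with Benjamini-Hochberg adjustment over all 27513 probes and an FDR under 0.15 as in the paper. The dye term was fitted over the 4 arrays taken singly, which counts both arrays of replicate 1. The test was also run on simulated data. 13 alternatives were tried.

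The members, gene lists and tests were chosen with earlier results of these data known. Named genes were *Terf2ip*, the stalk genes and *Rpsa*, the 6 largest increases and decreases that passed with 1 sign in all pairs, members whose probes passed both ways, members with the same sign on all 4 arrays that passed both fits (none), 8 well-known members, related genes and the 2 smallest p in each list. Genes named outside this rule (*Rpl37a*, *Rpl34*, *Rpl27a*, *Rps25*, *Rps24*, *Rpl27*, *Rpl30*, *Rpl37*, *Rps19bp1* and *Rps23rg1*) were chosen after their values were seen. Some items are not reported here.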

Additional observations from a re-analysis of the deposited data

How the results depend on the processing

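No named probe that passed turned its direction under the 12 alternatives computed probe by probe. With the mean over the probes of a gene, 18 of the 19 members that passed kept their sign and *Rps18* turned from -0.40 to 0.04 (adjusted p = 0.827 from limma). The 8 higher and 11 lower members kept within 1.5 times those counts with no background subtraction, with no filter on dim probes and with probes well above background in both genotypes. They moved to 3 and 6 with Agilent's processed signals, to 0 and 0 with the dye term, to 0 and 0 with the swap as a replicate of its own, and to 20 and 19 without the swap. The lower count was 0 with median centring, at a median of 0.16, and 22 with the authors' value table, and the higher count was 5 with the mean over the probes of a gene. Leaving out a replicate gave 0 to 18 higher and 0 to 12 lower, at medians of -0.06 to -0.00412. Over the translation lists, 85 of 256 genes passed, beside 34.1% of all named genes. The shares of all probes in the settings that follow are given above. The count was 43 with median centring, 6 with the dye term and 0 with the swap as a replicate of its own (40 at an unadjusted p under 0.05 in limma). It was 142 without the swap and 0 to 122 without 1 replicate. The cause of these moves was not tested. Of 17 named member probes that passed, 17 also did without the swap, 12 with Agilent's processed signals, 16 with the value table, 8 with median centring, 3 without replicate 3 and 0 without replicate 2 or with the dye term. The main test is already paired, since each array holds both genotypes, and no further replicate block was fitted. With 3 pairs, differences as small as most members' lay near the spread between arrays.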
